A study of Bos taurus with 30 samples.

Results

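The microRNA (miRNA) miR-22 was followed through both arms of its hairpin, bta-miR-22-3p (mean level 11333) and bta-miR-22-5p (mean level 19.1), below without the species prefix, in small RNA libraries from the testes of bull calves. These are 2 of the 1030 bovine miRNAs in the deposited table, and both passed the filter on low values that 387 miRNAs passed. The arms were picked by name, with earlier results known: miR-22-3p was among the miRNAs called between the diets, and miR-22-5p was taken as the other arm of its hairpin. Of the 387 miRNAs tested, 19 were called (4.91%), 9 of them higher under the High diet (2.33%), and of the 2 arms miR-22-3p was called and miR-22-5p was not. With edgeR on recovered reads 7.96% of 377 were called, again with miR-22-3p and without miR-22-5p, and in limma without Moderate replicate 5, 11.7% of 385 (4.94% higher under High). Because this comparison chose them, the values of the arms by diet are given below as a description, without a test.

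The calves were Holstein-Friesian bulls, 15 on each of 2 diets fed from 2 to 12 weeks of age, when the testes were collected. Daily rations on the High plane of nutrition were 10 L of milk replacer (1.5 kg) plus concentrate without limit, with growth of 1.0 kg per day intended. On the Moderate plane they were 4 L of milk replacer (0.5 kg) plus 0.5 kg of concentrate, with growth of 0.5 kg per day intended. Each library came from 1 calf, no untreated or unfed group was part of the design, and the RNA is that of bulk testis tissue with all its cell types. The diet of a library was read from its diet characteristic, on which all statements by diet rest. In all 30 libraries the suffix of the deposited column, H or L, goes with this characteristic. In 18 of the 30 libraries the title names the opposite diet, and which label is right was not tested.

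A miRNA hairpin is cut by Drosha and Dicer into a short duplex of its 5p and 3p strands. As a rule one strand is loaded into an Argonaute protein, where it guides the repression of mRNAs that pair with it, while the other strand, the passenger, is degraded and seen at lower levels. miR-22 is conserved among vertebrates and expressed in many tissues, and its 3p arm is the usual guide. That arm has been reported to repress ESR1, the gene of oestrogen receptor alpha, and miR-22 has been studied in heart growth and lipid metabolism.

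RefSeq's genes on the assembly ARS-UCD2.0 give miR-22 1 gene, MIR22, on chromosome 19. It overlaps the span of TLCD2, a protein-coding gene, and its nearest other protein-coding neighbours are PRPF8, a splicing factor gene, on one side and WDR81 on the other. No coordinates are printed, since no build is named for the deposited table. A second miRNA entry, MIR3600, overlaps MIR22 there. Its product miR-3600 was listed at 0 in all 30 libraries, where a count of 0 allows up to 3 reads, or 0.138 to 1.43 units depending on the library. This limit holds only if reads of miR-3600 were counted under that name. Aligner and miRNA reference are not named, and whether such reads were counted as miR-22 was not tested. Both arms of miR-22 came out at whole reads in all 30 libraries, so neither carried the fractional reads that some miRNAs with near-identical copies have.

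Depth, the sum of recovered reads over all miRNAs, ran from 6.0 to 19.98 M reads per library (M stands for mega). Of the libraries, 24 (11 High, 13 Moderate) had 10.3 M or fewer and 6 (4 High, 2 Moderate) had 16.7 M or more. Moderate replicate 5 stood apart: miR-10b, the most abundant miRNA, made up 84.8% of these miRNA reads in this library and 37.0% to 49.0% in each other one. Results that rest on this library are given with and without it. Levels below are deposited values, read as CPM (read counts per 1e6 reads of the library) after scaling by TMM (trimmed mean of M values). TMM corrects library sizes for differences in composition.

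miR-22-3p was an abundant miRNA of these testes and miR-22-5p a scarce one. Over the 30 libraries the 3p arm had a mean level of 11333 ± 2105 (SD) TMM-scaled CPM, which placed it 13th of the 1030 miRNAs, and between 10th and 16th in every library. Its neighbours in the order of mean levels were miR-27a-3p at 13830 above it and miR-126-5p at 10190 below it, both within 2 SD of miR-22-3p. The 5p arm had a mean of 19.1 ± 4.63, placed 203rd, and ranked between 183rd and 245th in single libraries. Its neighbours, miR-328 at 19.9 and miR-331-5p at 18.8, lay within a fraction of its SD. In reads, the 3p arm was counted 17638 to 244413 times per library, with the lowest count in Moderate replicate 5. The 5p arm was counted 12 to 375 times, so that counting error is much larger for it.

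In bulk tissue, fewer cells of a type and less RNA per cell cannot be told apart, which touches every level by diet. Under the High diet miR-22-3p ranged from 9812 to 16178 TMM-scaled CPM, with a median of 12295. Under the Moderate diet it ranged from 8044 to 12316, with a median of 10536. The ranges overlapped: 7 High libraries lay above the highest Moderate one, 7 Moderate libraries lay below the lowest High one, and 13 of 15 High libraries were above the Moderate median. The group means were 12517 ± 2051 and 10149 ± 1403 (SD, n = 15 each). On the log2(value + 0.5) scale the level under High minus that under Moderate was 0.30 with a standard error (SE) of 0.08, a fold of 1.23. Of the 387 miRNAs tested, 32 had a difference at least this high, and the median over all of them was 0.03.

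The highest levels of the 3p arm were those of High replicates 5, 8, 12 and 1, at 16178, 15887, 15185 and 14490. The lowest were those of Moderate replicates 1, 5 and 3, at 8044, 8389 and 8664. Leaving out any 1 library kept the difference between 0.27 and 0.32. The call that chose miR-22-3p was lost without High replicate 5, the library with its highest level. With all 30 libraries it was also lost under scaling by library totals alone and with no filter on low values.

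The share of miR-22-3p in the recovered reads of all miRNAs is scaled by the total of its library alone. This share is not corrected for differences in composition between libraries. It was 0.943% to 1.95% in a High library (median 1.31%) and 0.199% to 1.41% in a Moderate one (median 1.02%). The means were 1.36% ± 0.278 and 0.998% ± 0.274 (SD, n = 15 each), and 14 of 15 High libraries were above the Moderate median. The lowest share, 0.199%, was that of Moderate replicate 5. With library totals as the only scaling the log2 difference of the 3p arm was 0.51 (SE 0.18), and over all miRNAs tested the median difference was 0.21. Leaving out that library gave 0.35 (SE 0.09) and 0.07.

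For the passenger arm the diets overlapped more. Under High, miR-22-5p ranged from 14.1 to 29.4 TMM-scaled CPM with a median of 19.7, and under Moderate from 5.71 to 22.5 with a median of 17.3. The 5 highest levels were all High, but 10 of 15 High libraries were above the Moderate median, and 1 Moderate library, replicate 5, lay below the lowest High one. The means were 20.5 ± 4.62 and 17.6 ± 4.33 (SD, n = 15 each). The log2 difference, High minus Moderate, was 0.23 (SE 0.14), a fold of 1.18, and 45 of the 387 tested miRNAs had one at least as high. Leaving out Moderate replicate 5 made it 0.13 (SE 0.10), a fold of 1.09.

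**Figure D1:**
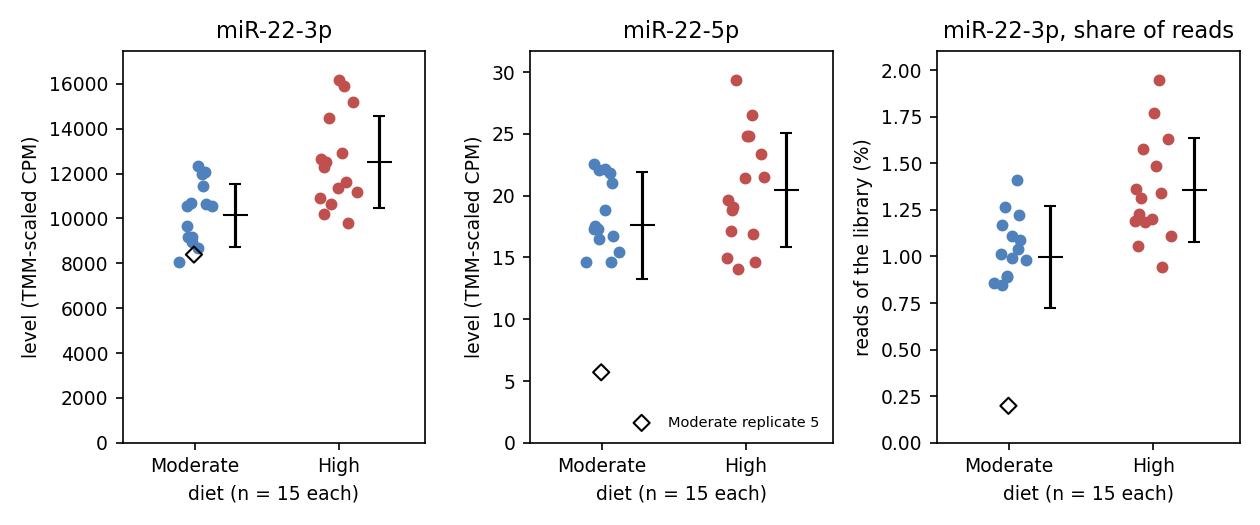
Levels of miR-22-3p (left) and miR-22-5p (middle) in TMM-scaled CPM and the share of miR-22-3p in the recovered miRNA reads in percent (right), 1 point per library, by diet (n = 15 each), with mean ± SD as black bars. The High points of miR-22-3p reach 16178 and the Moderate points 12316, with overlap, and Moderate replicate 5 (open diamond) is the lowest for miR-22-5p, at 5.71.

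Marker miRNAs of other cell types were read beside these levels. Both members of the germ cell list, miR-34b and miR-34c, are made from 1 transcript and are abundant in male germ cells from meiosis on. They rose under High in limma over 30 libraries (adjusted p = 0.0313 and 0.0260), a fit that called 4.91% of all 387. They also rose without Moderate replicate 5. Their summed level ranged from 76.6 to 253.7 under High (median 102.0) and from 11.9 to 174.9 under Moderate (median 61.0). With all 30 libraries neither was called in limma with library totals alone, with no filter on low values or by the titles. Nor was either called in the 12 libraries whose title and characteristic give the same diet or in the 18 others. None of the tested markers of smooth muscle (2 of 2 tested), endothelium (1 of 1), red blood cells (3 of 3), leukocytes (6 of 6), striated muscle (3 of 5), epithelium (4 of 5) or gonadal somatic cells (miR-202) passed. Once Moderate replicate 5 was left out, 1 leukocyte and 1 striated muscle marker rose. That fit called 11.7% of all 385 miRNAs tested, 4.94% of them as higher under High, so these 2 markers are not read as a result about cell types. The liver marker miR-122 was not tested and stayed at 2.84 or below in every library, and of the striated muscle markers miR-1 and miR-206 were listed at 0 in all libraries. The part of these cell types in the level of miR-22 was not tested. Nor was it tested whether meiotic germ cells were present in these testes at 12 weeks of age.

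The gap between the arms was wide. Per library, 416 to 1470 reads of the 3p arm were counted for each read of the 5p arm, with a median of 604 and a geometric mean of 607 over the 30 libraries. In other words, miR-22-5p made up 0.168% ± 0.0334 (SD, n = 30) of the reads of both arms. This is a ratio of reads, and adapter ligation and amplification differ between sequences, so it need not equal the ratio of molecules. Because both arms come from the same library, the ratio is free of any scaling between libraries.

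Under High the ratio ranged from 493.4 to 755 with a median of 651, and under Moderate from 416 to 1470 with a median of 556. The 3 lowest ratios were all Moderate (replicates 4, 11 and 3, at 416, 428 and 459), and the 2 highest were Moderate too (replicates 5 and 6, at 1470 and 782), so the High libraries lay inside the Moderate range. In mean log2 ratio the diets stood at 9.27 ± 0.19 (High) and 9.22 ± 0.43 (Moderate; SD, n = 15 each). The difference was 0.06 with an SE of 0.12, smaller than the SD within either diet. Without Moderate replicate 5 the Moderate mean was 9.12 ± 0.25 (n = 14) and the difference 0.15 (SE 0.08). This is larger than its SE, though still smaller than the SD of single libraries in either diet.

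**Figure D2:**
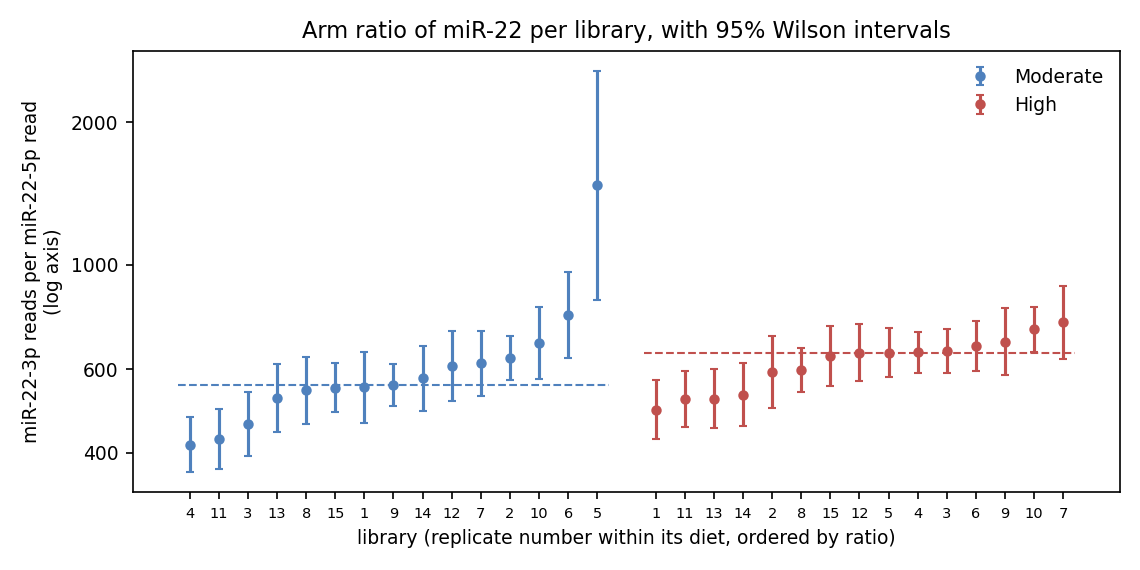
Reads of miR-22-3p per read of miR-22-5p in each library (log axis), ordered within its diet, with 95% Wilson intervals for counting error as bars and the median of each diet as a dashed line (556 Moderate, 651 High). Moderate replicate 5, at 1470, has the widest interval.

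The ratio of Moderate replicate 5 rested on 12 reads of the 5p arm against 17638 of the 3p arm. The 5p arm thus made up 0.0680% of the reads of both arms there, with a 95% Wilson interval of 0.0389% to 0.119%, against 0.128% to 0.240% in the other 29 libraries. Its interval lay apart from those of 27 of them. In this library miR-22-3p deviated by -0.42 from the mean of the other 29 on the log2 scale, close to the median of all tested miRNAs (-0.38), and miR-22-5p by -1.66, where 48 of the 387 tested miRNAs were as low or lower. PCR reads without molecular identifiers are not independent molecules, so the intervals hold counting error and nothing else.

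Over the other 29 libraries, each from another calf, the SD of the log2 ratio was 0.23, and the part that counting error alone would give is 0.11, a quotient of 2.11. The 95% Wilson intervals of Moderate replicate 4 (363 to 476) and Moderate replicate 11 (369 to 495) overlapped each other and lay below that of High replicate 7 (632 to 900). Ordered by ratio, however, each library's interval overlapped that of the next in all 29 adjacent pairs, so the order of neighbouring libraries is not resolved at this depth.

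Among the hairpins compared, miR-22 was one of the most lopsided. These were the 32 hairpins with arms named 5p and 3p that both passed the filter on low values. Hairpins with an arm named without 5p or 3p, or with an arm too scarce to pass, were left out. The latter can be more lopsided, so the place of miR-22 holds among these 32 only. Of them, 13 had more 3p and 19 more 5p reads. The more abundant arm exceeded the other by 1.16 to 4593-fold, with a median of 7.51-fold. miR-22, at 607-fold, came second after miR-27a, whose 3p arm exceeded its 5p arm by 4593-fold, and was followed by miR-30b (353-fold) and let-7a (289-fold), in both of which the 5p arm leads and, for let-7a, reads are divided between copies. The spread of its ratio was ordinary: without Moderate replicate 5, its SD of 0.23 was below the median of the 32 hairpins (0.25; range 0.09 to 0.80), and its quotient over counting error of 2.11 was near their median of 1.94.

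**Figure D3:**
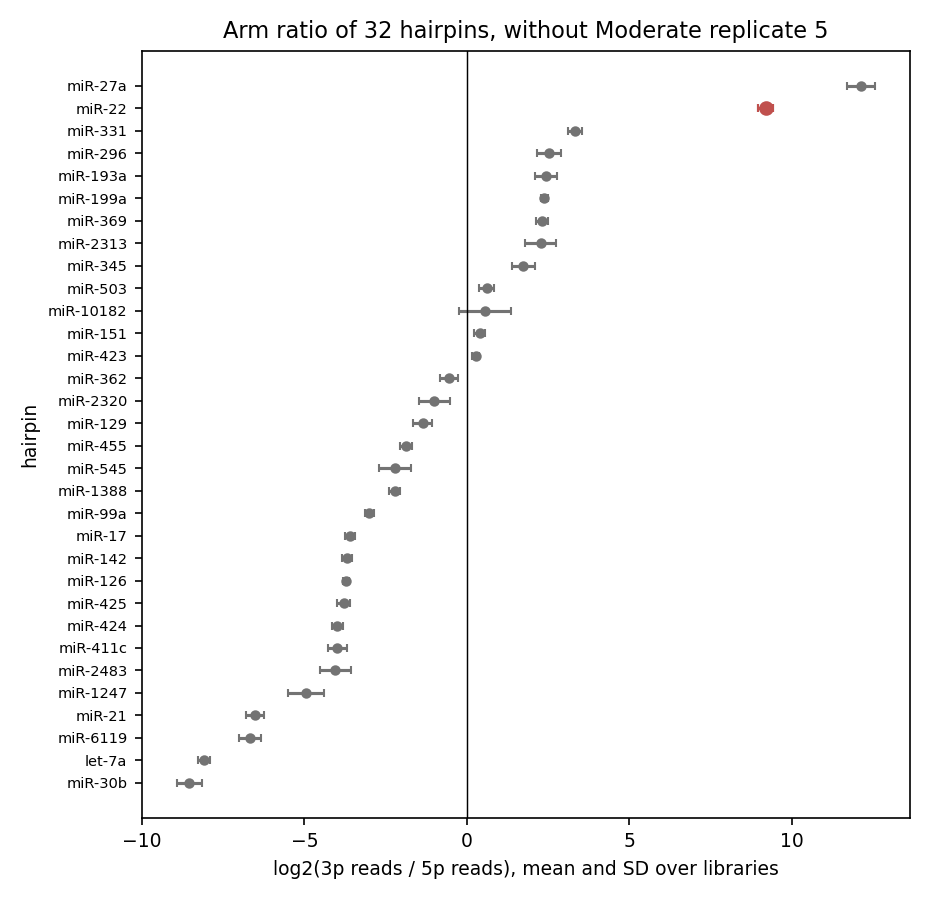
Mean log2 ratio of 3p to 5p reads, with SD over up to 29 libraries (Moderate replicate 5 left out), for 32 hairpins with both arms tested. miR-22 (red) is second from the top, with 9.20, after miR-27a with 12.1, and values below 0 mark hairpins with more 5p reads.

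The place of miR-22 among the hairpins by the diet difference of its ratio changed with Moderate replicate 5. In the 30 libraries 25 of the 32 hairpins, miR-22 included, had a difference at least as large in size as its 0.06, and without Moderate replicate 5, 11 of the 32, miR-22 included, had one at least as large as its 0.15. In 15 of the 32 hairpins both arms had a positive log2 difference, as in miR-22, in 6 both had a negative one, and in 11 the signs differed. Moderate replicate 5 moved the ratios of other hairpins as well. Of the 30 hairpins with both arms above 0 in it, 15 (miR-22 included) deviated from the mean of the other libraries by at least the 1.32 of miR-22 on the log2 scale, up to 4.70 for miR-345, and the scarcer arm was relatively lower in 15 of the 30.

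The levels of the arms went together from library to library. Over the 30 libraries their log2 levels had a Pearson r of 0.64 (permutation p = 3.00e-05, 9.00e-05 adjusted over the 3 correlations computed) and a Spearman rho of 0.65 (permutation p = 0.000190, 0.000570 adjusted), both two-sided. After subtracting the mean of each diet r was 0.60 (permutation p = 0.000110) and rho 0.63 (permutation p = 0.000220). Without the 2 libraries farthest from the median level of miR-22-3p, r was 0.58 (permutation p = 0.000710), and without Moderate replicate 5 it was 0.65 (permutation p = 0.000280). The arms share the scaling factor of their library under each scaling used, and the part of this factor in r was not tested. With upper-quartile scaling r was 0.52 (permutation p = 0.00319), and with median-of-ratios scaling 0.54 (permutation p = 0.00147). With library totals alone r was 0.93 (permutation p = 1.00e-05), and 0.76 without Moderate replicate 5 (permutation p = 1.00e-05).

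Within the High diet r was 0.83 (n = 15, permutation p = 0.000160), against 0.45 among the Moderate calves (n = 15, permutation p = 0.0722) and 0.30 among these without replicate 5 (n = 14, permutation p = 0.289). The difference between the diets in r was not tested. By depth, r was 0.63 in the 24 shallower libraries (permutation p = 0.000340) and 0.87 in the 6 deeper ones (exact permutation p = 0.0375).

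**Figure D4:**
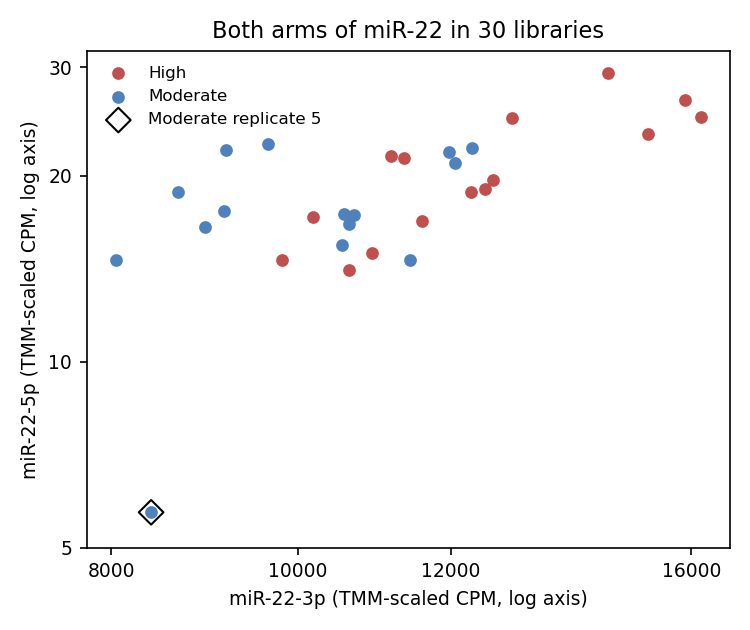
Level of miR-22-5p against that of miR-22-3p in TMM-scaled CPM (both axes log), 1 point per library, coloured by diet, with Moderate replicate 5 as an open diamond. Libraries high in one arm tend to be high in the other over all 30 libraries (r = 0.64 on the log2 scale) and over the High ones (0.83). Over the Moderate ones r was 0.45, and 0.30 without Moderate replicate 5.

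The log2 ratio of the arms was set against depth and against the share of miR-10b. With log10 depth r was 0.16 (permutation p = 0.390, 0.390 adjusted) and rho 0.25 (permutation p = 0.183, 0.274 adjusted), and without the 2 libraries farthest from the median depth r was 0.10. Below 12 M reads r was 0.06 (permutation p = 0.774). Within High it was 0.51 (permutation p = 0.0516; rho 0.56, permutation p = 0.0318), and within Moderate -0.016 (permutation p = 0.949). With the share of miR-10b r was 0.62 (permutation p = 0.0282, 0.0424 adjusted) but rho -0.09 (permutation p = 0.637). Without Moderate replicate 5 that r was -0.22 (permutation p = 0.260), and without the 2 libraries farthest from the median share -0.23, so the pooled value rests on 1 library.

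The size of the diet difference was also computed in subsets of the libraries. In the 24 libraries below 12 M reads the 3p arm stood at 12929 ± 2170 under High (n = 11) and 9945 ± 1357 under Moderate (n = 13), a log2 difference of 0.37 (SE 0.09). In the 6 deeper libraries it stood at 11385 ± 1262 (n = 4) and 11469 ± 1197 (n = 2), a difference of -0.014 (SE 0.12). The 5p arm differed by 0.35 (SE 0.16) in the shallower and by -0.20 (SE 0.19) in the deeper libraries. For the log2 ratio of the arms the difference was 0.0076 (SE 0.15) in the shallower and 0.19 (SE 0.08) in the deeper libraries. Without Moderate replicate 5 the shallower ones gave a ratio difference of 0.12 (SE 0.098). Whether the shallower and deeper libraries differ in this was not tested. With log10 depth as a covariate the 3p difference was 0.30 (SE 0.08). That fit gives both diets the same depth term, so it cannot show whether the diet difference changes with depth.

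By label, in the 12 libraries in which the titles give the same diet as the characteristic, the 3p arm stood at 12720 ± 2371 under High and 9970 ± 1756 under Moderate (n = 6 each), a log2 difference of 0.35 (SE 0.15). In the 18 in which they differ, it stood at 12382 ± 1948 and 10268 ± 1216 by the characteristic (n = 9 each), a difference of 0.26 (SE 0.09). Grouped by the titles, all 30 libraries gave 11249 ± 2098 for the High titles and 11417 ± 2183 for the Moderate titles, a difference of -0.019 (SE 0.09). By the titles no miRNA was called in limma, with 11 of 387 at an unadjusted p under 0.05, and miR-22-3p was called neither in the 12 libraries nor in the 18. For the 5p arm these differences were 0.51 (SE 0.29) in the 12, 0.05 (SE 0.11) in the 18 and 0.17 (SE 0.14) by the titles. In the 12 without Moderate replicate 5 the arms differed by 0.30 (SE 0.14; 3p) and 0.26 (SE 0.20; 5p). The ratio of the arms differed by -0.18 (SE 0.25) in the 12, by 0.03 (SE 0.14) there without Moderate replicate 5, by 0.21 (SE 0.10) in the 18 and by -0.20 (SE 0.12) by the titles.

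**Figure D5:**
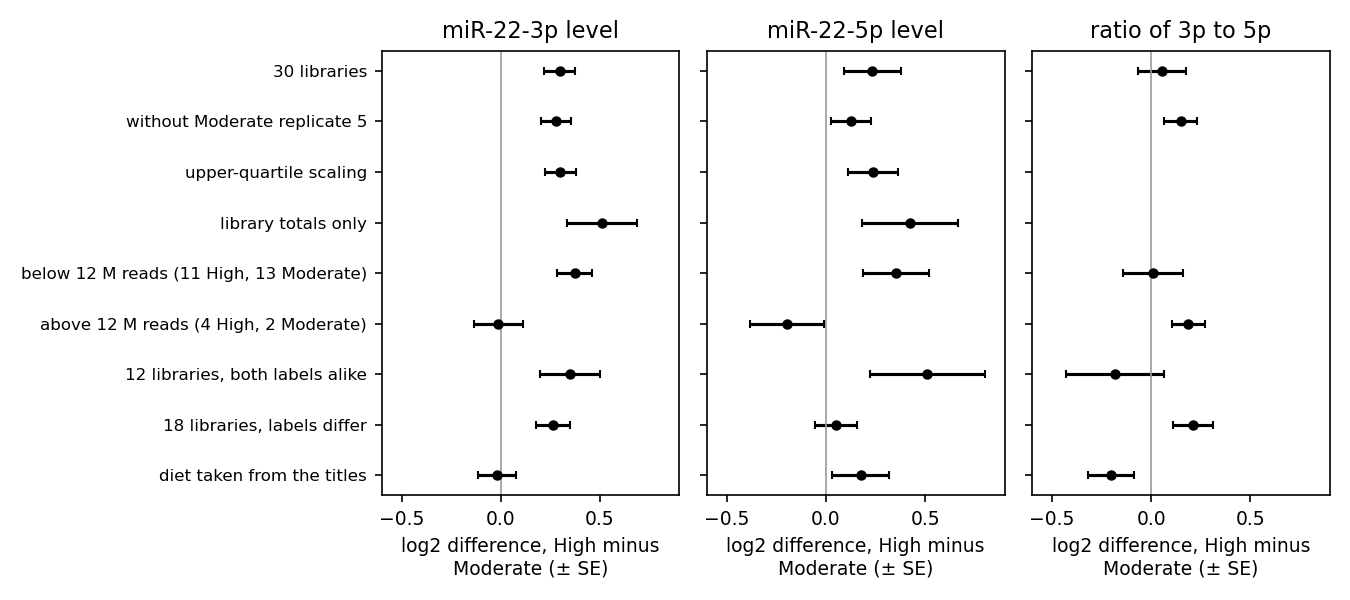
Log2 difference, High minus Moderate, in the level of each arm and in the ratio of 3p to 5p, with SE as bars, for 9 choices of libraries, scaling or label (the ratio does not depend on scaling and has no point there). The 3p difference lies between 0.26 and 0.51 in 7 of them and near 0 in the 6 deeper libraries (-0.014) and by the titles (-0.019).

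From library to library miR-22-3p varied much for a miRNA of its abundance. Its SD within the diets on the log2 scale was 0.21 over the 29 libraries without Moderate replicate 5, and 18 of the 20 miRNAs nearest to it in mean level varied less (median 0.15, range 0.09 to 0.32). For miR-22-5p the SD was 0.28, and 13 of its 20 nearest miRNAs varied less (median 0.24, range 0.13 to 0.43).

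The miRNAs most like miR-22-3p were sought by the Spearman correlation of log2 levels over the 30 libraries after subtracting the mean of each diet, a description over 386 other tested miRNAs, whose median rho was 0.00. The nearest were miR-450b (rho 0.79), miR-425-5p (0.78), miR-421 (0.73), miR-103 (0.64) and miR-22-5p itself (0.63). Over the 29 libraries without Moderate replicate 5 these rho were 0.76, 0.78, 0.82, 0.63 and 0.62. miR-450b belongs to an X-linked cluster with miR-424, miR-503 and miR-542, miR-421 to an X-linked cluster with miR-374, and miR-103 has been studied as a regulator of insulin sensitivity. Of these, miR-425-5p rose under High (log2 difference 0.24, SE 0.06, adjusted p = 0.0260 in limma), while miR-450b (0.27, SE 0.11), miR-421 (0.22, SE 0.08) and miR-103 (0.12, SE 0.04) did not pass.

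For miR-22-5p the nearest were miR-103 (rho 0.71), miR-6123 (0.69), miR-542-5p (0.66), miR-1260b (0.65) and miR-2285dl-3p (0.65), and miR-22-3p came 7th of 386 (0.63). In the 29 other libraries these 5 stood at 0.68, 0.58, 0.63, 0.60 and 0.54, and miR-22-3p at 0.62, then 4th. miR-103 was the 1 miRNA among the nearest of both arms. miR-103 and miR-2285dl-3p carry divided reads, the latter was scarce at a mean of 1.05, and none of these 5 passed between the diets.

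Of 6 other miRNAs reported to target ESR1, 5 were tested and none passed in limma, with a median log2 difference of 0.06 against 0.03 over all 387 tested. miR-193b, at 81.9 ± 14.4 under High and 66.7 ± 16.6 under Moderate, stood at 0.32 (SE 0.12, adjusted p = 0.0849 in limma), miR-221 (80.6 ± 11.3 and 85.3 ± 17.3) at -0.06 and miR-222 (41.0 ± 9.21 and 45.7 ± 8.53) at -0.16, while miR-206 was listed at 0. In the 29 libraries without Moderate replicate 5 none passed, and the median was -0.02.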

How the data were processed

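Small RNA was sequenced from 30 calf testes. Per the labels' protocols, the RNeasy Plus Universal kit (Qiagen) gave the RNA and the TruSeq small RNA kit (Illumina) the libraries. The submitters' processing notes name FastQC 0.11.8, cutadapt 2.6, R 3.4 and edgeR 3.5, while aligner, miRNA reference and build are not named there. The deposited table holds a normalized signal, read here as TMM-scaled CPM. Dividing by the value of 1 read gave whole reads for 95.3% of 18379 values above 0 (tolerance 0.02 read). This shows reads scaled by 1 factor per library but not the scaling method behind the factor. The recovered reads served for depth, arm counts and the count models.

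limma 3.58.1 with a mean-variance trend was fitted to log2(value + 0.5) of the 387 miRNAs with at least 1 unit in at least 15 libraries (R 4.3.3), with diet as the only term, Benjamini-Hochberg adjustment and a threshold of 0.05; edgeR 4.0.16 and DESeq2 1.42.0 on recovered reads were alternatives. On those reads edgeR called 30 of 377 miRNAs, miR-22-3p included. Correlations used 100000 permutations (all orders for 6 libraries). Intervals of arm shares are 95% Wilson intervals. The fits and the correlation test were tested on simulated data. The members, lists and tests were chosen with earlier results of these data known. Named miRNAs are the arms, the 5 nearest to each arm in rho, and up to 3 of the most abundant members of each list; the hairpins beside miR-22, and the list members that were not tested or were listed at 0, were named after their values were seen. Replicate numbers follow accession order. The labels name 1 calf per library, so p-values rest on the spread between libraries. In that spread, differences between calves cannot be told apart from differences in library preparation and sequencing. 1 list of miRNAs is not reported here. No mature sequence is printed.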

Additional observations from a re-analysis of the deposited data

Results flagged for a closer look

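Both arms and their ratio were examined in 15 sets of values (5 groups of 4 to 9 libraries, by diet and title or by diet and depth) for a library far from the rest of its set. In 2 of the 15 sets there was one, and in both it was Moderate replicate 5, among the 6 Moderate libraries titled Moderate. Its log2 level of miR-22-5p was 2.63, where the 5 others had a mean of 4.12 ± 0.24, and its log2 ratio of miR-22-3p to miR-22-5p was 10.52, where the 5 others had 9.24 ± 0.22. By chance alone about 1 set in 20 would hold one, and the 2 sets share the level of miR-22-5p. The level rests on 12 reads.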

How the results depend on the processing

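Neither the arm values by diet nor the arm ratio carries a test, so alternatives were compared by direction and size. For miR-22-3p the direction held with other pseudocounts, scalings and tools, without the filter and with 1 library left out (0.27 to 0.32). It turned in the 6 deeper libraries (-0.014), by the titles (-0.019) and by the titles without Moderate replicate 5 (-0.049). For miR-22-5p (0.13 to 0.27 with 1 library left out) it turned in the 6 deeper libraries (-0.20). The ratio difference (0.02 to 0.15 with 1 library left out) turned by the titles (-0.20; -0.12 without Moderate replicate 5) and in the 12 libraries whose labels give 1 diet (-0.18). The number of miRNAs called in limma, 19 with all 30 libraries, was 45 without Moderate replicate 5, 3 below 12 M reads (31 without that replicate) and 2 above, and it was 30 in edgeR and 47 in DESeq2. In limma it was 0 with library totals alone (61 at an unadjusted p under 0.05; 31 called without Moderate replicate 5), with no filter (104), by the titles (11), in the 12 libraries (43) and in the 18 (58), and miR-22-3p was not called in these nor above 12 M reads. The correlation of the arms (0.60 to 0.68 with 1 library left out) was past p = 0.05 except within Moderate (0.45; 0.30 without replicate 5). The correlation of the ratio with depth was 0.27 without Moderate replicate 5 and turned within Moderate (-0.016) and below 12 M reads without replicate 5 (-0.076). That with the miR-10b share turned without Moderate replicate 5 (-0.22), without the 2 farthest libraries (-0.23), below 12 M reads without replicate 5 (-0.26), in the 6 deeper libraries (-0.83) and within High (-0.35), and within Moderate without replicate 5 it was 0.056. The causes were not tested. Chosen after seeing the data were the subsets of deeper libraries and of 18 libraries, median-of-ratios scaling for the arm correlation, and leaving out Moderate replicate 5 together with another choice (a subset, 1 diet, the titles, library totals or edgeR). No paired analysis was possible because the labels number no replicates and each calf had 1 diet. The 5p arm, with 12 to 375 reads per library, limits the precision of the ratio.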
